A study of Homo sapiens with 4 samples.

Results

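The nuclear hormone receptors are a family of transcription factors, most of which are switched by a small lipid-soluble ligand. A list of 46 receptor genes was looked up on the array by gene symbol. Of these, 39 had at least 1 probe set that carried their symbol alone, out of 18132 genes measured in the same way. Where a gene had several probe sets, the one with the highest average signal was read. The other 7 genes (NR1D1, NR1H2, NR1H4, NR1I2, HNF4A, NR2F2 and NR0B1) were not analysed here. NR1D1, which encodes REV-ERB alpha, overlaps THRA in the genome and carried only 1 probe set, which also bore the THRA symbol.

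The cells were U87MG, an established human glioblastoma line, maintained in 0.2% oxygen. The control group (n = 2 arrays) received the PCMV control vector and the NeuroD2 group (n = 2 arrays) received a vector for overexpression of NeuroD2, a transcription factor that drives neurons to differentiate and binds E-boxes. Total RNA from both groups was taken 48 hours after transfection and hybridised to Affymetrix PrimeView arrays, which read the 3' part of transcripts. The labels call the arrays of a group biological replicates without describing their cultures, and p-values therefore measure only the spread between these samples, which may be technical. They name neither the share of cells that took up a vector nor the NeuroD2 vector's promoter. Because each array held RNA from a whole culture, fewer cells that express a gene and less of its RNA per cell cannot be told apart.

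Most nuclear receptors share a DNA-binding domain of zinc fingers and a ligand-binding domain. Steroid receptors bind DNA as pairs of the same protein, whereas the receptors for retinoic acid, thyroid hormone, vitamin D, fatty acids and oxysterols pair with a retinoid X receptor (RXR). Coactivators are recruited when a ligand is bound, and corepressors are held by many receptors in its absence. The retinoid-related orphan receptors (ROR) and the REV-ERB receptors bind the same single sites, where ROR activates and REV-ERB represses, and the circadian activator gene BMAL1 is their best known target. In gliomas, retinoic acid, thyroid hormone and glucocorticoid receptors are known for their influence on differentiation and growth.

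The targeted gene NEUROD2 was higher by 2.19 on the log2 scale in the NeuroD2 group on its brightest probe set (95% interval 1.82 to 2.57, adjusted p = 0.0044, limma), while its other 2 probe sets differed by -0.21 and -0.07. The line's markers VIM and CD44 read 14.1 to 14.2 and 12.7 to 12.9 over the arrays, close to the top of the array's range, while the glial markers GFAP and SOX2 read 6.07 to 6.35 and 4.36 to 4.73, below the median level of all genes (6.56). Of the 10 markers of a glioma or astroglial line, 2 fell (SOX9 by 1.01 and CHI3L1 by 0.51 on the log2 scale) and 0 rose. That is 20% passed, against 4.77% of all genes, and 5 were at or above that median level. An unadjusted p under 0.05 was found for 4 (40%, against 21.8% of all genes). Of these, 2 were higher (OLIG2 by 0.39 and GFAP by 0.24) and 2 lower. Of the 8 neuron markers 1 fell (SNAP25, by 0.59) and 0 rose (12.5% passed). An unadjusted p under 0.05 was found for 3 (37.5%), 1 higher (STMN2, by 0.21) and 2 lower (SNAP25 and SYT1). The mean of the neuron markers' levels was 6.47 and 6.52 in the control group and 6.33 and 6.39 in the NeuroD2 group. Of the 6 microglial, 5 endothelial and 5 epithelial markers, 0 passed the test, with 2, 1 and 2 at an unadjusted p under 0.05. These are 33.3%, 20% and 40%, against 21.8% of all genes. The fibroblast and mesenchymal markers moved with the groups: 4 of 5 fell (80% passed, against 4.77% of all genes). The mean of their levels was 6.41 in the NeuroD2 group and 7.04 to 7.06 in the control group. Control replicate 1 stood apart on the poly-A spike-in controls, RNAs added before labelling. Its mean was 6.95 over 24 probe sets, against 7.96 to 8.03 on the other arrays. The hybridisation spike-in controls (18 probe sets) separated the groups. They averaged 9.56 and 9.90 on the control arrays and 10.10 and 10.13 on the NeuroD2 arrays. The group difference was 0.39, and without control replicate 1 it was 0.22. Whether these differences bear on the receptor values was not tested.

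The next sequences are promoters of genes that the results turn on: RORA, the receptor that passed the test; BMAL1, the clock gene that ROR and REV-ERB control; and RARB, the retinoic acid receptor gene that retinoic acid itself induces. They are RefSeq windows of GRCh38.p14 that run from 250 bases before to 50 bases after a transcription start, printed 5' to 3' on the gene's strand. The RORA window lies at chr15:60627481-60627780 on the minus strand, and its capitals mark the only match to CANNTG, the E-box core that factors such as NeuroD2 bind. The BMAL1 window lies at chr11:13277540-13277839 on the plus strand, and its capitals mark AAAGTAGGTTA and AAAGTAGGTCA, which differ in 1 letter and are forms of the site shared by ROR and REV-ERB. The RARB window lies at chr3:25428013-25428312 on the plus strand, and its capitals mark GTTCA, any 6 bases and GTTCA again, a direct repeat that is part of the known retinoic acid response element of this promoter.
RORA: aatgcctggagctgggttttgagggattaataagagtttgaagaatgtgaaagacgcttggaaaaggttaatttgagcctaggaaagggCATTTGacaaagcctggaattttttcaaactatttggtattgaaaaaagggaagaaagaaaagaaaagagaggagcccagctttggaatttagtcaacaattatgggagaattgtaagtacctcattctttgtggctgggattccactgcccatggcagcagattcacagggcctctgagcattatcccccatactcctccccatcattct
BMAL1: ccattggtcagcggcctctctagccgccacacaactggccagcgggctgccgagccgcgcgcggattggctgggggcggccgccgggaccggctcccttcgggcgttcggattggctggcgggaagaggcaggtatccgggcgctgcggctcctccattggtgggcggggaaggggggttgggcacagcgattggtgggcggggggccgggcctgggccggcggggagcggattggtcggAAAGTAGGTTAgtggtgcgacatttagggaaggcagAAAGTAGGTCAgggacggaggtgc
RARB: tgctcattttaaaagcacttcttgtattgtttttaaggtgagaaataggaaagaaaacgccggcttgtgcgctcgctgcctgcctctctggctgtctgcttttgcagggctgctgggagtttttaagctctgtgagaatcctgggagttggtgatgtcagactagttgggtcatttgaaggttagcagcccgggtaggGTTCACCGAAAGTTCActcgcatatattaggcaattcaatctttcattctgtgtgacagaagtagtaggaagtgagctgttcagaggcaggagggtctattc
The letters were searched on both strands, and the last 2 patterns were written with these promoters in view. CANNTG was in 68.7% of all 35116 windows and in 70.9% of the 86 windows of the 34 receptor genes that matched the table by symbol. CAGATG and CAGCTG, forms of CANNTG, were in 14.7% and 17.9% of all windows and in 15.1% and 22.1% of the receptor windows, and neither was in the RORA window. AGGTCA, the core that many nuclear receptors bind, was in 13.8% of all windows and 16.3% of receptor windows, from 9 of the 34 genes. The ROR site, with any base in place of the letter that differs in BMAL1, was in 15 windows of the whole table, and the direct repeat in 20, of which 1 was from a receptor gene. The BMAL1 and RARB windows were printed because they hold these letters: the other of the 2 BMAL1 windows and the other 3 of the 4 RARB windows do not. These matches describe letters only.

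Across the family, RORA was the receptor gene that passed the adjusted threshold of 0.05, and it rose. That is 1 of 39 genes, against 4.77% of all genes tested, so the share of receptors called was not above the background. An unadjusted p under 0.05 was found for 7 receptors, 6 of them higher in the NeuroD2 group (RORA, PPARA, NR4A3, NR1I3, THRB and RORB) and 1 lower (NR2F1), against 21.8% of all genes (9.27% higher and 12.5% lower). The arrays of the groups did not overlap for 20 of the 39 receptors, 11 of them higher and 9 lower, against 50.8% of all genes (24.2% higher and 26.6% lower). A difference of at least 0.3 on the log2 scale was measured for 2 receptors, RORA and PPARA, against 12.4% of all genes.

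In direction, 25 receptors were higher and 14 lower by any amount, where 50% of all genes were higher. Their median log2 difference was 0.07, and that of all genes was 0. The mean of the receptors' levels was 6.18 and 6.20 on the control arrays and 6.23 and 6.27 on the NeuroD2 arrays. These groups did not overlap. Over all genes the mean was 6.81 to 6.84 on the control arrays and 6.81 on both NeuroD2 arrays. Differences ran from -0.27 for NR2F1 to 0.55 for RORA, and the median size of a difference was 0.12 for receptors and 0.11 for all genes. Among the receptors, the excess of higher values lay in the dim ones. Of the 16 receptors at or above the median level of all genes (6.56), 8 were higher and 8 lower, with a median of 0.02. Of the 23 below it, 17 were higher and 6 lower, with a median of 0.09. Their mean levels ran from 3.18 to 6.45, where the lowest value on any array was 2.65. The difference between bright and dim receptors was not tested, and the share of all dim genes that were higher was not counted.

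**Figure D1:**
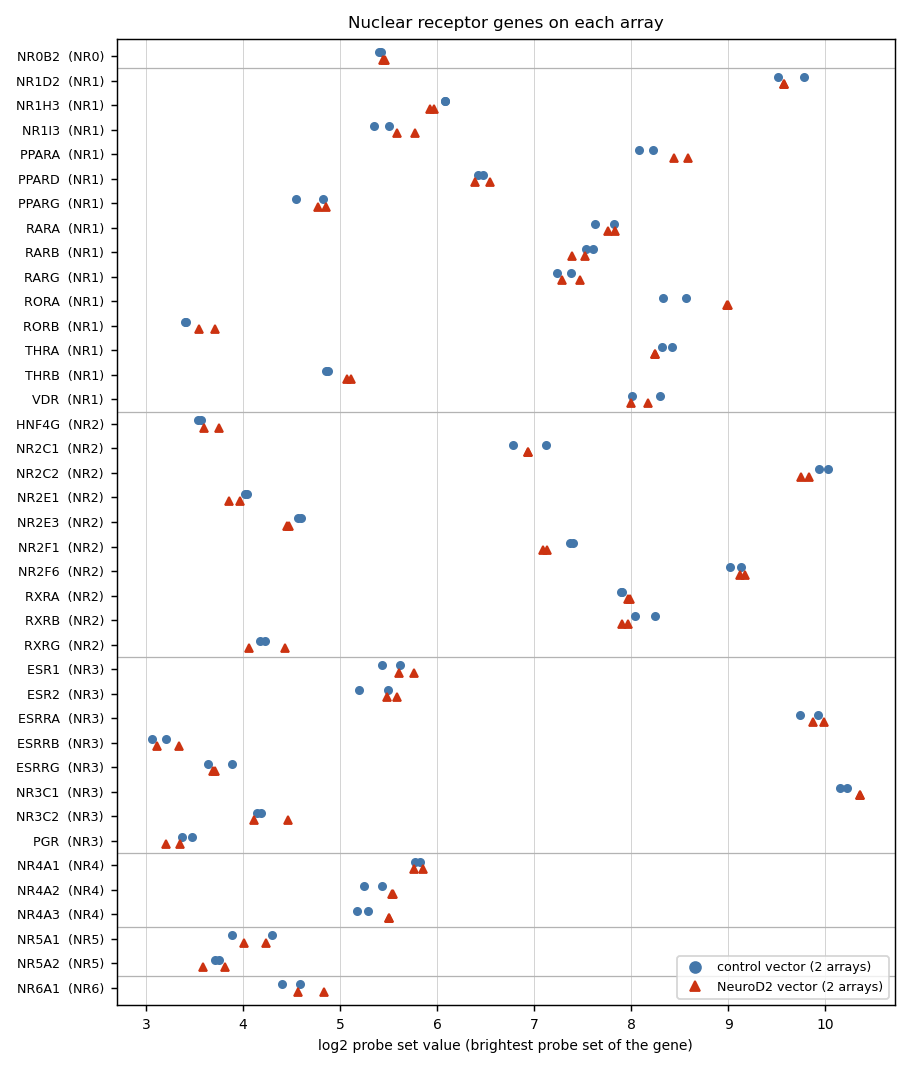
Each point is a receptor gene's deposited log2 value on 1 array, for all 39 receptor genes grouped by subfamily, with circles for the control vector arrays and triangles for the NeuroD2 vector arrays (n = 2 each). For RORA the symbols are apart, at 8.33 and 8.56 against 9.00 and 8.99, while for 19 of the 39 genes the groups overlap.

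**Figure D2:**
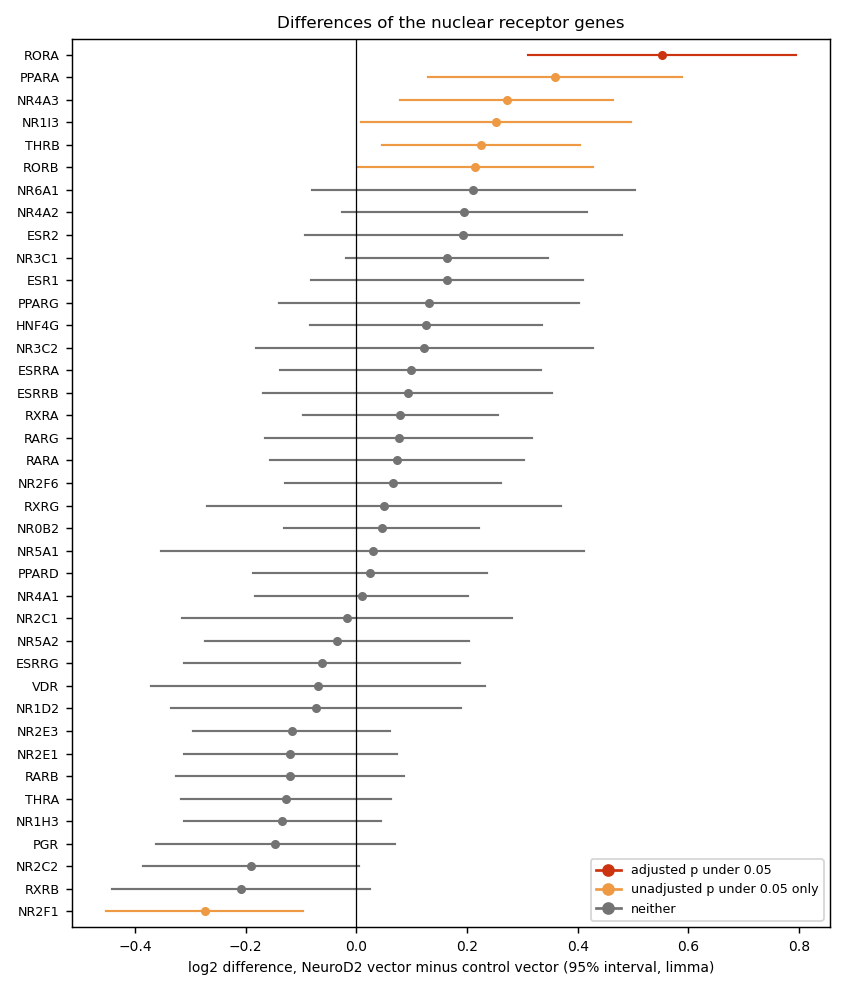
Points are the log2 differences, NeuroD2 vector minus control vector, of the 39 receptor genes with 95% intervals from limma, coloured by whether the gene passed the adjusted threshold, had only an unadjusted p under 0.05, or neither. The interval of RORA runs from 0.31 to 0.79, and most of the others include 0.

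RORA encodes ROR alpha, an activator best known for driving clock genes and for its part in cerebellar development. Its values were 8.33 and 8.56 on the control arrays and 9.00 and 8.99 on the NeuroD2 arrays. Both NeuroD2 arrays lay above both control arrays, and the control arrays differed from each other more than the NeuroD2 arrays did. The means were 8.44 ± 0.16 and 8.99 ± 0.01 (SD, n = 2 each), and the difference was 0.55 (SE 0.10, 95% interval 0.31 to 0.79), a 1.47-fold rise (adjusted p = 0.0406, limma). Without control replicate 1 the difference was 0.44 (adjusted p = 0.141, limma), and without control replicate 2 it was 0.67 (adjusted p = 0.147, limma). Without NeuroD2 replicate 1 or replicate 2 it was 0.55 or 0.56, at adjusted p-values of 0.247 and 0.233 by limma, so the call was lost on leaving out any 1 array. Without either control array 0 of all 18132 genes passed in limma (4428 and 4102 at an unadjusted p under 0.05), and without NeuroD2 replicate 1 or 2, 57 and 66 passed. Over all 13 alternatives the adjusted p ran from 0.00567 to 0.247.

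All 3 RORA probe sets were higher in the NeuroD2 group. The second-brightest read 8.26 and 8.26 on the control arrays and 8.74 and 8.69 on the NeuroD2 arrays, a difference of 0.45. The third read 6.44 and 6.63 against 7.23 and 7.12, a difference of 0.64. When every probe set was tested on its own, these passed at adjusted p-values of 0.0446 and 0.0373 by limma, and the brightest missed at 0.0525. They were the 2 probe sets that passed among 158 for all receptors, against 3.03% of all probe sets. RORB, a relative known from retina and cortex, read 3.41 on both control arrays and 3.71 and 3.54 on the NeuroD2 arrays, and its difference of 0.21 did not pass (adjusted p = 0.226, limma).

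NR1D2 encodes REV-ERB beta, a repressor that competes with ROR for the same sites. It read 9.51 and 9.78 on the control arrays and 9.57 and 9.58 on the NeuroD2 arrays. The NeuroD2 values lay between the control values. The difference was -0.07 (95% interval -0.33 to 0.19, adjusted p = 0.762, limma). Its 4 probe sets did not share a direction, at -0.07, 0.22, 0.23 and -0.27 from the brightest to the dimmest, and without control replicate 1 the first was -0.21.

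A list of clock genes that ROR and REV-ERB control, and of their partners, held genes that were lower where they passed. Of 21 listed clock genes 17 were measured, 2 fell and 0 rose, and 5 had an unadjusted p under 0.05, all lower. These are 11.8% and 29.4% of the list, against 4.77% and 21.8% of all genes, and the median difference was -0.07 against 0 for all genes. The clock list was chosen with earlier results of these data known, so its shares are not independent of the data. BMAL1, the activator with both sites in 1 of its 2 promoter windows, read 8.44 and 8.53 on the control arrays and 8.12 and 8.03 on the NeuroD2 arrays. It fell by 0.41 on the log2 scale, or 1.33-fold (95% interval -0.61 to -0.21, adjusted p = 0.0494, limma), and its other 2 probe sets differed by -0.28 and -0.32. It missed the threshold with a robust prior (adjusted p = 0.0531, limma), and its adjusted p over all alternatives ran from 0.0097 to 0.323. PER3, a period protein gene, read 6.07 and 6.21 against 5.56 and 5.51, and fell 1.53-fold (difference -0.61, adjusted p = 0.0227, limma). The mean of its probe sets gave -0.27 (adjusted p = 0.0969, limma). Both calls were lost on leaving out any 1 array, as were most calls among all genes. The differences stayed at -0.46 to -0.36 for BMAL1 and -0.68 to -0.54 for PER3.

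The other clock genes with an unadjusted p under 0.05 missed the adjusted threshold. BHLHE41, a repressor of the clock, differed by -0.30, NPAS2, a partner of BMAL1, by -0.28, and NFIL3, a repressor, by -0.20. Among the negative arm of the loop, PER1 differed by 0.20, PER2 by -0.07, CRY1 by 0.21 and CRY2 by 0.16, with adjusted p-values from 0.293 to 0.656 by limma. CLOCK itself differed by 0.08. RORA rose and its target BMAL1 fell, at the single time after transfection that was measured.

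**Figure D3:**
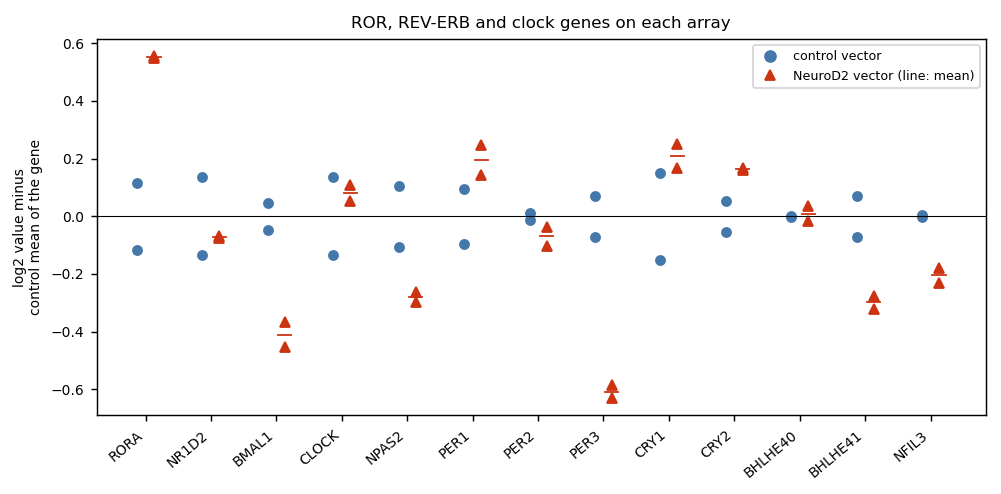
For ROR, REV-ERB and clock genes, the vertical axis gives each array's log2 value minus the mean of the gene's control arrays; circles are control arrays, triangles NeuroD2 arrays (n = 2 each) and lines the NeuroD2 means. RORA lies 0.55 above the control mean, while BMAL1 (-0.41) and PER3 (-0.61) lie below it.

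The peroxisome proliferator-activated receptors (PPAR) bind fatty acids and control lipid metabolism. PPARA, the activator of fatty acid oxidation, read 8.08 and 8.23 on the control arrays and 8.44 and 8.59 on the NeuroD2 arrays, and the groups did not overlap. Its difference was 0.36 (95% interval 0.13 to 0.59), 1.28-fold, and it missed the threshold (adjusted p = 0.0942, limma). Of its 9 probe sets 7 were higher, 4 of them at an unadjusted p under 0.05, and the mean of the probe sets gave 0.17. The second-brightest read 6.97 and 6.93 against 7.34 and 7.31, a difference of 0.38 (adjusted p = 0.0655 among all probe sets, limma). With an intensity trend in limma or with dim genes left out, PPARA passed (adjusted p = 0.0338 and 0.0259), and over all alternatives its adjusted p ran from 0.0259 to 0.458.

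PPARG, the regulator of fat cell differentiation, read 4.82 and 4.54 against 4.78 and 4.85, and the groups overlapped. Its other probe set had the opposite sign, at -0.36 against 0.13, so no direction was settled. PPARD, a widely expressed relative, differed by 0.02. NR1H3, the oxysterol receptor LXR alpha, differed by -0.13 on its single probe set, with 6.08 on both control arrays and 5.97 and 5.93 on the NeuroD2 arrays (adjusted p = 0.354, limma).

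Lipid genes that the LXR and PPAR pairs with RXR control were read gene by gene as a list, with no test of the list itself. Of 28 listed genes 25 were measured, 2 fell and 0 rose, and 5 had an unadjusted p under 0.05 (1 higher, 4 lower). These are 8% and 20% of the list, against 4.77% and 21.8% of all genes, and the median difference was -0.01. LPCAT3, an LXR target that remodels phospholipids, read 8.95 and 8.98 on the control arrays and 8.21 and 8.24 on the NeuroD2 arrays. It fell by 0.74 on the log2 scale, 1.67-fold (adjusted p = 0.0102, limma). FABP4, a fatty acid carrier under PPARG, read 5.63 and 5.46 against 4.89 and 4.89 and fell 1.57-fold (adjusted p = 0.0203, limma). The calls of LPCAT3 and FABP4 were lost on leaving out any 1 array, as were most calls among all genes. Their differences stayed at -0.76 to -0.72 and -0.74 to -0.57. SREBF1, the LXR-driven regulator of fatty acid synthesis, differed by -0.40 (adjusted p = 0.0727, limma), and ABCA1, the LXR-driven cholesterol exporter, by 0.21 (adjusted p = 0.213, limma).

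The thyroid hormone receptors THRA and THRB had opposite signs on their brightest probe sets. THRB read 4.88 and 4.85 on the control arrays and 5.07 and 5.11 on the NeuroD2 arrays, a difference of 0.22 (95% interval 0.05 to 0.40, adjusted p = 0.151, limma). THRA read 8.42 and 8.32 against 8.24 and 8.25, a difference of -0.13 (adjusted p = 0.407, limma). Neither passed. The 8 THRA probe sets ran from -0.53 to 0.06, and 6 were lower. The second-brightest read 7.24 and 7.44 on the control arrays and 6.73 and 6.89 on the NeuroD2 arrays (adjusted p = 0.0633 among all probe sets, limma), so probe sets of this gene differed in size more than the brightest alone shows.

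Vitamin D and foreign compounds are sensed by other members of this branch. VDR, the vitamin D receptor, read 8.00 and 8.30 on the control arrays and 8.00 and 8.17 on the NeuroD2 arrays, with a difference of -0.07 (95% interval -0.37 to 0.23). NR1I3, the constitutive androstane receptor of liver, read 5.50 and 5.35 against 5.77 and 5.58, a difference of 0.25 (adjusted p = 0.218, limma). Of its 9 probe sets 5 were higher and 4 lower, and 3 of the higher ones had an unadjusted p under 0.05.

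Of the 3 retinoic acid receptors (RAR) and the 3 RXR partners, 0 passed in limma on their brightest probe sets, against 4.77% of all genes. On these probe sets 0 had an unadjusted p under 0.05, against 21.8% of all genes. Among their dimmer probe sets, 1 of RARB and 2 of RXRB had an unadjusted p under 0.05, and 0 passed. RARA differed by 0.07 and RARG by 0.08, and for both the groups overlapped. RARB, whose promoter response element is printed above, read 7.61 and 7.54 on the control arrays and 7.39 and 7.52 on the NeuroD2 arrays. Its difference was -0.12 (95% interval -0.33 to 0.09, adjusted p = 0.472, limma), although a dimmer probe set read 6.28 and 6.43 against 6.05 and 6.02 (-0.32) and the dimmest differed by 0.25. On the brightest probe set the gap between the groups was smaller than that between the NeuroD2 arrays.

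RXRA, a general partner of other receptors, read 7.89 and 7.90 on the control arrays and 7.99 and 7.96 on the NeuroD2 arrays, a difference of 0.08 (95% interval -0.10 to 0.26). RXRB read 8.25 and 8.04 against 7.96 and 7.91, a difference of -0.21 (95% interval -0.44 to 0.03, adjusted p = 0.276, limma). The groups of RXRB did not overlap, but without control replicate 1 its difference was -0.10. Its 3 brighter probe sets were lower (-0.21, -0.34 and -0.32) and its 2 dimmest higher (0.19 and 0.21). RXRG differed by 0.05 with overlapping groups.

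Genes that make, carry and remove retinoic acid were taken as a list of 20, of which 17 were measured. Of these 1 rose and 0 fell (5.88% against 4.77% of all genes), 3 had an unadjusted p under 0.05 (17.6% against 21.8%), and the median difference was 0.0040. CYP26B1, the enzyme that breaks down retinoic acid, read 6.15 and 6.05 on the control arrays and 7.19 and 7.23 on the NeuroD2 arrays. It rose 2.15-fold, by 1.10 on the log2 scale (95% interval 0.91 to 1.30, adjusted p = 0.00454, limma), and its dimmer probe set differed by 0.02. Without control replicate 1 the rise was 1.15 and without control replicate 2 it was 1.05, at adjusted p-values of 0.141 and 0.147 by limma, and it passed without either NeuroD2 array.

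ALDH1A3, which makes retinoic acid, read 12.60 and 12.61 on the control arrays and 12.90 and 13.05 on the NeuroD2 arrays. The groups did not overlap, and the difference of 0.37 missed the threshold (adjusted p = 0.0659, limma). On 3 of its other probe sets, tested among all probe sets, it was higher by 0.97, 0.82 and 0.84 and passed (adjusted p = 0.018, 0.0139 and 0.022, limma), while the dimmest differed by -0.18. The mean of its 5 probe sets gave 0.56 (adjusted p = 0.00986, limma). RDH10, which makes the precursor retinaldehyde, differed by 0.22 (adjusted p = 0.231, limma).

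Among the orphan receptors of the NR2 branch, 0 passed in limma, and 1 (NR2F1) had an unadjusted p under 0.05. Of all genes, 4.77% and 21.8% did so. NR2F1 (COUP-TFI), a regulator of cortical patterning that often represses retinoid signalling, read 7.40 and 7.37 on the control arrays and 7.13 and 7.09 on the NeuroD2 arrays. The arrays of each group lay close together and the groups did not overlap. Its difference was -0.27 (95% interval -0.45 to -0.10, 1.21-fold) on its only probe set, and it missed the threshold (adjusted p = 0.0973, limma). With dim genes left out it passed (adjusted p = 0.0224, limma), and its adjusted p over the alternatives ran from 0.0224 to 0.469.

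NR2C2 (TR4) read 9.93 and 10.03 on the control arrays and 9.83 and 9.75 on the NeuroD2 arrays, a difference of -0.19 (95% interval -0.39 to 0.004, adjusted p = 0.239, limma), and both its probe sets were lower. Its relative NR2C1 (TR2) differed by -0.02. NR2F6, a COUP-TF relative, differed by 0.07 with overlapping groups. NR2E1 (TLX), which maintains neural stem cells, differed by -0.12, and NR2E3, a photoreceptor factor, by -0.12. HNF4G, related to the liver factor HNF4A, differed by 0.13.

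The steroid receptors and their relatives did not pass, against 4.77% of all genes that did. On their brightest probe sets 0 had an unadjusted p under 0.05 in limma, against 21.8% of all genes. Among dimmer probe sets, NR3C1, ESR2 and ESRRG each had 1 at an unadjusted p under 0.05. NR3C1, the glucocorticoid receptor, read 10.15 and 10.22 on the control arrays and 10.35 on both NeuroD2 arrays. Both NeuroD2 values lay above the control values, and the difference was 0.16 (95% interval -0.02 to 0.35, adjusted p = 0.273, limma). Of its 10 probe sets 9 were higher, from 0.005 to 0.25, and 1 lower. NR3C2, the mineralocorticoid receptor, differed by 0.12, and PGR, the progesterone receptor, by -0.15.

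The estrogen receptors ESR1 and ESR2 differed by 0.16 and 0.19, with overlapping groups. ESRRA, an orphan relative that controls mitochondrial genes, read 9.92 and 9.74 on the control arrays and 9.98 and 9.87 on the NeuroD2 arrays, and its difference was 0.10 (adjusted p = 0.621, limma). ESRRB and ESRRG differed by 0.09 and -0.06.

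Of the known glucocorticoid receptor targets 18 of 20 were measured, 3 rose, 1 fell and 6 had an unadjusted p under 0.05. These are 22.2% passed and 33.3% at an unadjusted p, against 4.77% and 21.8% of all genes, and the median difference was 0.10. The list was chosen with earlier results of these data known, so these shares are not independent of the data. They are also not matched for level, as 14 of the 18 were at or above the median level of all genes. DUSP1, a phosphatase that switches off MAP kinases, read 9.73 and 9.76 on the control arrays and 10.52 and 10.60 on the NeuroD2 arrays and rose 1.76-fold (difference 0.82, adjusted p = 0.00884, limma). NFKBIA, the inhibitor of NF-kB, rose by 0.54 (adjusted p = 0.0236, limma) and CEBPD, a transcription factor of acute responses, by 0.49 (adjusted p = 0.0308, limma). RGS2, a brake on G protein signalling, fell by 0.45 on the log2 scale (adjusted p = 0.0328, limma). These 4 are also known to respond to inflammatory and growth signals. FKBP5 and TSC22D3, which are used as readouts of glucocorticoid receptor activity, differed by -0.11 and -0.22 and did not pass (adjusted p = 0.62 and 0.178, limma). The unadjusted p of TSC22D3 was 0.030 (limma). Other targets that did not pass were higher, among them ERRFI1 by 0.23, PER1 by 0.20 and SGK1 by 0.17. Of all 18 targets, 11 were higher and 7 lower by any amount. On leaving out each array in turn the calls of DUSP1, NFKBIA, CEBPD and RGS2 were lost, as were most calls among all genes. The differences of these 4 stayed at 0.78 to 0.86, 0.50 to 0.58, 0.45 to 0.52 and -0.48 to -0.43.

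Enzymes and chaperones of steroid, thyroid and vitamin D hormones were measured for 23 of 24 listed genes, of which 1 fell and 0 rose (4.35% against 4.77% of all genes). An unadjusted p under 0.05 was found for 4 (17.4% against 21.8%), and the median difference was 0.05. SRD5A1, which reduces testosterone to dihydrotestosterone, read 8.50 and 8.63 on the control arrays and 8.12 on both NeuroD2 arrays, and fell 1.36-fold (adjusted p = 0.0414, limma). Its call was lost on leaving out any 1 array, with differences of -0.51 to -0.38, and when every probe set was tested on its own (adjusted p = 0.0558, limma; over all alternatives 0.00772 to 0.281). CYP24A1, which degrades vitamin D and is a standard VDR target, differed by -0.33 (adjusted p = 0.0633, limma). CYP19A1, the aromatase that makes estrogens, differed by 0.28 (adjusted p = 0.135, limma). Both were dim, with mean levels of 4.10 and 4.48, below the median level of all genes. Over all alternatives their differences ran from -0.36 to -0.07 and from 0.0069 to 0.36.

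The NR4A receptors are immediate early genes that act without a ligand. NR4A3 (NOR1) read 5.18 and 5.29 on the control arrays and 5.50 and 5.51 on the NeuroD2 arrays, a difference of 0.27 (95% interval 0.08 to 0.46, adjusted p = 0.118, limma). Its other 2 probe sets were lower, by -0.15 and -0.07. NR4A2 (NURR1), a factor of dopamine neurons, read 5.43 and 5.25 against 5.53 and 5.54, a difference of 0.20 that did not pass (adjusted p = 0.281, limma), and all 3 of its probe sets were higher. NR4A1 (NUR77) differed by 0.01 (95% interval -0.18 to 0.20) with overlapping groups. The remaining receptors were read at low values: NR5A1 (SF-1) differed by 0.03, NR5A2 (LRH-1) by -0.04, NR6A1, a germ cell factor, by 0.21, and NR0B2 (SHP), which lacks a DNA-binding domain, by 0.05.

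**Figure D4:**
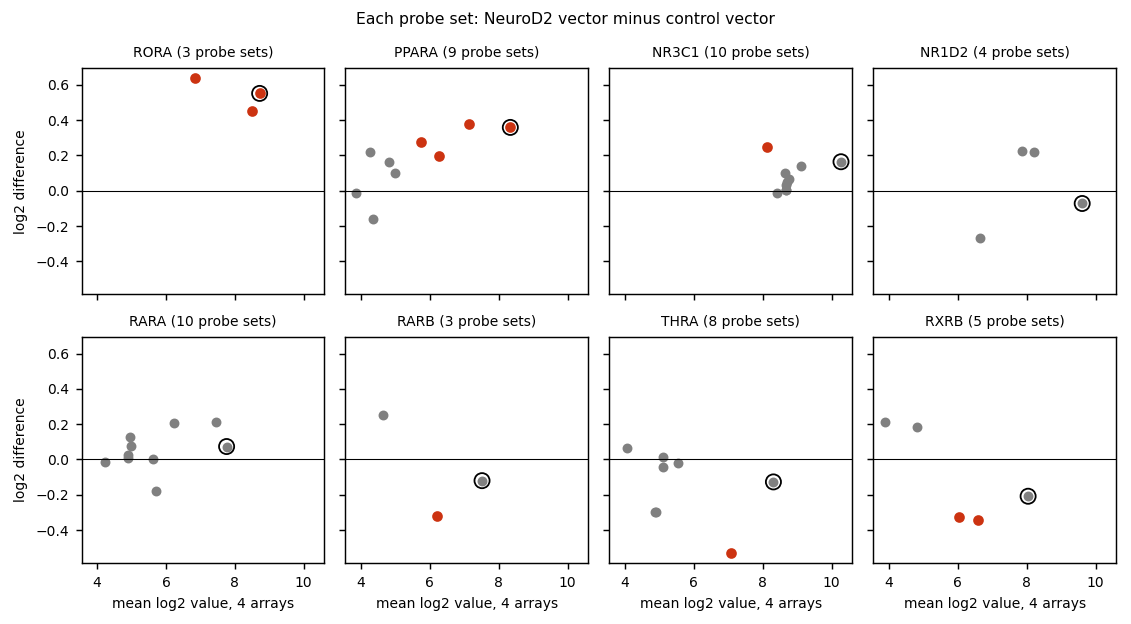
Each point is 1 probe set of a receptor gene, with its mean log2 value over the 4 arrays on the horizontal axis and its log2 difference, NeuroD2 vector minus control vector, on the vertical axis; red marks an unadjusted p under 0.05 and a ring the brightest probe set. The 3 probe sets of RORA lie between 0.45 and 0.64, whereas those of RXRB lie on both sides of 0 (-0.34 to 0.21).

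Of the 34 receptor genes with more than 1 probe set, 24 had probe sets in both directions and 10 in 1 direction. Among all 158 receptor probe sets, 21 (13.3%) had an unadjusted p under 0.05, against 19.9% of all probe sets. Probe sets of 1 gene share its transcripts and are not replicates. RORA was the receptor for which every probe set had an unadjusted p under 0.05 among genes with more than 1.

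Of the coactivators, 25 of 26 were measured, and 1 rose and 1 fell (8% against 4.77% of all genes). An unadjusted p under 0.05 was found for 10 (40% against 21.8%). At or above the median level of all genes were 21 of the 25, so these shares are not matched for level. With limma run on such genes alone, 3378 of 9066 genes and 10 of the 21 coactivators had an unadjusted p under 0.05. NCOA7, an estrogen receptor coactivator, read 9.47 and 9.56 on the control arrays and 8.85 and 8.97 on the NeuroD2 arrays and fell by 0.61 on the log2 scale, 1.52-fold (adjusted p = 0.023, limma). The mean of its 5 probe sets gave -0.37 (adjusted p = 0.0878, limma). PPRC1, a PGC-1 relative that drives mitochondrial genes, read 8.14 and 8.13 against 8.53 and 8.52 and rose 1.31-fold (adjusted p = 0.0436, limma). MED14, a subunit of Mediator, differed by -0.41 and CREBBP, an acetyltransferase, by 0.30 (adjusted p = 0.0658 and 0.101, limma). Over all alternatives the MED14 difference ran from -0.47 to -0.08. The median difference of the list was 0.03. The calls of NCOA7 and PPRC1 were lost on leaving out any 1 array, as were most calls among all genes. Their differences stayed at -0.67 to -0.55 and 0.38 to 0.39.

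Of the corepressors, 18 of 20 were measured, and 0 passed in limma, with 4 at an unadjusted p under 0.05 (1 higher and 3 lower, 22.2% against 21.8% of all genes). The median difference was -0.01. HDAC5, a histone deacetylase, differed by -0.47 (adjusted p = 0.101, limma), SAP30, a SIN3 complex subunit, by -0.40 (adjusted p = 0.0536, limma), and LCOR by -0.32 (adjusted p = 0.157, limma). NRIP1, which is recruited by ligand-bound receptors, differed by 0.28 (adjusted p = 0.136, limma).

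**Figure D5:**
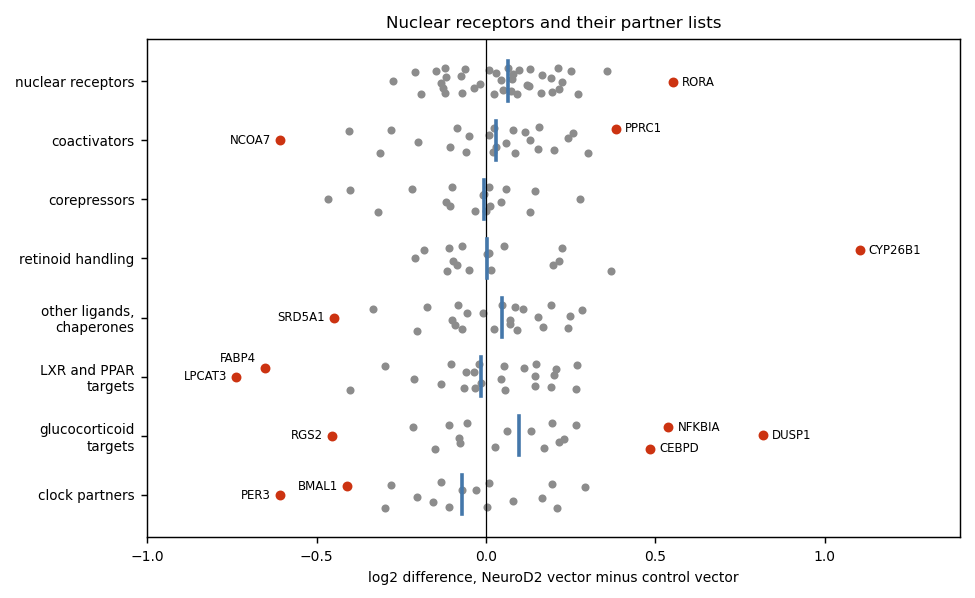
Points are log2 differences, NeuroD2 vector minus control vector, of the genes in 7 lists of receptor partners, ligand enzymes and targets, beside the receptor genes; red points with names passed the adjusted threshold and blue bars are list medians. CYP26B1 at 1.10 and DUSP1 at 0.82 are highest among the named genes, and LPCAT3 at -0.74 is lowest.

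Over the 7 lists together 141 of 157 genes were measured, 5 rose and 7 fell (8.51%, against 4.77% of all genes, of which 1.81% were called higher and 2.96% lower). An unadjusted p under 0.05 was found for 37 (26.2%, against 21.8% of all genes). At or above the median level of all genes were 92 of the 141, so these shares are not matched for level. A gene can stand in more than 1 list. All 7 lists were chosen with earlier results of these data known. Shares above the background, together or by list, are therefore not independent of the data.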

How the data were processed

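RNA of 2 control vector and 2 NeuroD2 vector samples was measured on 1-colour PrimeView arrays. It was labelled with biotin by the GeneChip 3' IVT Express kit, per the labels' protocols. The authors' deposited table holds 49395 probe sets and was read as log2 values, a scale taken from its range of 2.65 to 14.3 and its array medians of 5.98 to 5.99. How it was background-corrected and normalized, and with which software, is not given in the sources used here. Detection calls and scan dates were not used here, so no gene was called absent and no batch was tested. No sequencing depth applies, and the precision is limited by how few arrays there are.

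Genes were named through GEO's platform annotation, with the 44988 probe sets that carry 1 symbol. A gene's value is that of its brightest probe set, by the mean of the 4 arrays. Levels of different probe sets are not comparable. Groups were compared over all 18132 genes with limma 3.58.1 in R 4.3.3 (lmFit and eBayes, group as the only term, 2 residual and 3.84 prior degrees of freedom, two-sided). P-values were adjusted by the Benjamini-Hochberg method over all genes, with a threshold of 0.05. "Rose" and "fell" are used for genes past it. Differences are NeuroD2 minus control. The fit was tested on simulated data.

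The receptor genes, the 7 partner lists and the markers were chosen with earlier results of these data known. Receptors were named in detail where they passed the adjusted threshold, had an unadjusted p under 0.05, differed by at least 0.3, were among the 6 brightest, had probe sets that disagreed with 1 of them at an unadjusted p under 0.05, or were the brightest of a subfamily. From each list, up to 6 genes past the threshold were named, or the 3 with the largest differences where fewer passed. All other genes named were chosen for their known role or after their values were seen. Alternatives tried were a block for the replicate number, each array left out in turn, quantile normalization, median centring, an intensity trend, a robust prior, leaving out genes below the median level, averaging probe sets by gene, fitting every probe set on its own, and leaving out probe sets marked as shared (s_at and x_at). In the fit of every probe set on its own, each gene was then read on its probe set with the lowest p, a choice that depends on the outcome. Promoters came from a RefSeq table of GRCh38.p14.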

Additional observations from a re-analysis of the deposited data

How the results depend on the processing

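With 2 arrays a group, whether a gene passes depends on the array left out. Leaving out any 1 array lost most calls among all genes, so a lost call does not set 1 gene apart. Over the leave-one-out fits, 0 to 66 genes passed against 864, with 4428 and 4102 at an unadjusted p under 0.05 without control replicates 1 and 2, where 0 passed. For the receptors 0 passed in each such fit, with 10, 7, 2 and 4 at an unadjusted p under 0.05. For retinoid handling 0 to 1 passed, and for the coactivators, steroid and other ligand genes, LXR and PPAR targets, glucocorticoid targets and clock genes 0 to 0. NEUROD2 ran from 1.97 to 2.42 in these fits, and without s_at and x_at probe sets it was -0.21 (adjusted p = 0.493, limma).

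The replicate numbers are not known to pair the arrays: across 18132 genes the replicate differences of the groups correlated at 0.08. With the replicate block 335 genes passed, with 0 receptors (RORA at an adjusted p of 0.0688, limma), 1 coactivator, 0 other ligand genes, 1 glucocorticoid target and 0 clock genes. An intensity trend gave 2056 genes, with 2 receptors, 5 coactivators, 3 corepressors, 3 retinoid genes and 5 LXR and PPAR targets. Leaving out genes below the median level gave 2081, with 3 receptors, 7 coactivators, 3 corepressors and 2 retinoid genes. The mean of probe sets gave 1 coactivator, 2 retinoid genes and 1 clock gene. Every probe set was also fitted on its own, and each gene was read on its probe set with the lowest p. This gave 1 coactivator, 1 corepressor, 2 retinoid genes, 0 other ligand genes and 1 clock gene. Quantile normalization gave 1 corepressor. A robust prior and leaving out s_at and x_at probe sets each gave 1 clock gene. The receptors' median difference of 0.07 ran from 0.046 to 0.092 with 1 array left out. It became 0.025 with dim genes left out and 0.040 with the mean of probe sets. On the lowest-p probe set of each gene, a choice that depends on the outcome, it was 0.12. These shifts were set against the SD of 0.023 between replicates of the receptors' mean level.

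Of 45 named genes 38 kept their direction under every alternative run for them, which was 12 for genes below the median level or 13. Without control replicate 2, NR1D2 and ESRRG reversed to 0.063 and 0.061, PPARG to -0.0078, NR4A1 to -0.016 and NR5A1 to -0.18; their leave-one-out ranges were -0.21 to 0.063, -0.19 to 0.061, -0.0078 to 0.27, -0.040 to 0.059 and -0.18 to 0.23. NR5A1 was -0.09 without NeuroD2 replicate 1, and NR4A1 was -0.040 without NeuroD2 replicate 2. The mean of probe sets reversed NR1D2 (0.026), PPARG (-0.11) and NR4A1 (-0.0012). Reading each gene on its lowest-p probe set reversed NR1D2 (0.23) and PPARG (-0.36). Leaving out s_at and x_at probe sets reversed NR4A3 (-0.15), NR1D2 (0.22) and NR4A1 (-0.066). The cause was not tested.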
